A study of Mus musculus with 12 samples.

Results

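The genes described here are 42 mouse chaperones, co-chaperones and regulators of protein folding stress, chosen by name from a fixed list and read as entries of the deposited gene count table. They were split into 22 heat shock genes, which serve the cytosol and the mitochondria, and 20 unfolded protein genes, which serve the endoplasmic reticulum (ER) or report stress in it. The table has 53819 entries, of which 15698 passed the low-count filter, and all 42 genes were among them.

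RNA came from wild-type (WT) mouse stromal cells in 4 groups of 3 libraries; no source used here gives strain, age or sex. Marrow of both hind limbs and the pelvis was grown on collagen I and, after 1 passage, taken whole (BM nonsorted) or flow sorted (BM sorted) to keep CD51+ Sca-1+ cells free of F4/80, Ly6C, CD45 and CD31. Bone-associated cells, released from hind-limb bone fragments by collagenase I, were taken whole (BAC nondepleted) or after magnetic removal of cells with CD45, Ly6C or F4/80 (BAC depleted). Cultures were kept in hypoxia in alpha MEM without ascorbic acid, per the labels; no source used here says how long bone-associated cells were cultured. Compartment, enzyme digestion, culture and method of purification therefore cannot be told apart where marrow is set against bone.

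Heat shock factor 1, encoded by Hsf1, is the main activator of cytosolic chaperone genes when unfolded protein builds up there, and it binds alternating GAA and TTC units in their promoters. In the ER the sensors IRE1, ATF6 and PERK run the unfolded protein response: IRE1 splices Xbp1 mRNA, ATF6 is cut to a transcription factor that acts through the ER stress response element, and PERK slows translation while favouring ATF4. ATF4 in turn raises Ddit3, Trib3 and Chac1. Stromal cells of bone secrete much collagen, which folds in the ER with the help of these chaperones, and enzymatic release of cells from tissue is a known inducer of heat shock and immediate-early genes.

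Where motifs were found, the 2 sets of genes carried different ones, and promoter stretches of 5 genes with a match are shown for that reason. RefSeq promoter windows of 300 bases (250 before and 50 after the start, build GRCm38.p6) were found for 34 of the 42 genes, 16 of them heat shock and 18 unfolded protein genes; Hsf1, Hspa8, Hsp90aa1, Hsp90ab1, Cryab, Hspa9, Hspa13 and Manf had none. Motifs were searched on both strands. Stretches run 5′ to 3′ on the strand of the gene, and capitals mark the match.
Hspa1a: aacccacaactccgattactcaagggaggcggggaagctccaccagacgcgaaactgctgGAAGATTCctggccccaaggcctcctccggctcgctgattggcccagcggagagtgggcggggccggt
Dnaja1: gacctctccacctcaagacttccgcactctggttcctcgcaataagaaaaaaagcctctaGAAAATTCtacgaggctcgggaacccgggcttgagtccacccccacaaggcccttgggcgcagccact
Hspe1: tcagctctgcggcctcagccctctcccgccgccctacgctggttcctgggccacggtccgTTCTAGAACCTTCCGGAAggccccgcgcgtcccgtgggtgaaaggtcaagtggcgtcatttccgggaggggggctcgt
Hspa5: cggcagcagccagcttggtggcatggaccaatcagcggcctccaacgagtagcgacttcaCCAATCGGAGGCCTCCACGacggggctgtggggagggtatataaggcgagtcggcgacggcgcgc
Dnajc3: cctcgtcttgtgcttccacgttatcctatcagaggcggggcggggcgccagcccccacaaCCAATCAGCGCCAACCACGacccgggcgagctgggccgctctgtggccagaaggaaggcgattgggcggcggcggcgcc

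The Hspa1a stretch lies at chr17:34972193-34972320 on the minus strand, and the corresponding stretch of its neighbour Hspa1b, at chr17:34959275-34959402, has the same letters throughout. Over the whole window of 300 bases the promoters of Hspa1a and Hspa1b differ at 4 bases. Dnaja1, at chr4:40722284-40722411 on the plus strand, has its match in 1 of its 3 windows. Hspe1, at chr1:55087999-55088136 on the plus strand, lies next to Hspd1. Hspa5 is at chr2:34771965-34772089 and Dnajc3 at chr14:118937767-118937905, both on the plus strand.

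An outward pair of heat shock units, GAANNTTC, stood in 10 of 16 heat shock genes (62.5%), in 0 of 18 unfolded protein genes and in 9.04% of all 27025 genes with a window. The 10 are Hspa1a, Hspa1b, Hsph1, Bag3, Dnaja1, Hspb1, Hspb6, Hspb8, Hspd1 and Hspe1. The inward pair TTCNNGAA was in 4 of 16 (25%), against 9.6% of all genes. Both pairs overlap in the array of 3 units (GAA, TTC and GAA, or TTC, GAA and TTC, with spacers of 2 bases), which was found in Hsph1, Hspd1 and Hspe1 (18.8%) against 0.662% of all genes. The ER stress response element, CCAAT and CCACG with 9 bases between them, was in 7 of 18 unfolded protein genes (38.9%), namely Hspa5, Hsp90b1, Dnajc3, Creld2, Calr, Canx and Pdia6, and in 0.137% of all genes. TGATGNAA, a form of the C/EBP-ATF element that ATF4 binds, was in Herpud1, Chac1 and Trib3 (16.7%) and in 4.51% of all genes. None of these motifs was found for the heat shock genes Hspa2, Hspa4, Hspa4l, Dnajb1 and Hspb7. The same held for the unfolded protein genes Dnajb9, Dnajb11, Sdf2l1, Pdia3, Pdia4, Atf4, Ddit3 and Xbp1. A match describes the letters and does not show that a factor is bound.

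Libraries held 27937709 to 32164725 counts. Levels are CPM, counts scaled to a common library size with TMM factors, given as mean ± SD over n = 3 libraries, and CPM is not per gene length, so levels are compared only within a gene. BAC depleted 1 stood apart from the other libraries: it had 43406 counts of Xist and 0 of Ddx3y, where all other libraries had at most 16 and at least 2484, and its immediate-early genes were low. Xist is transcribed from the inactive X chromosome of female cells and Ddx3y lies on the Y chromosome, so by these counts BAC depleted 1 had the female pattern and the other 11 libraries the male one. Values without it are given beside the results that it moved across the threshold. All 20 macrophage markers fell with depletion and 19 fell with sorting; their summed level was 14701 to 16787 CPM in BAC nondepleted and 19.1 to 67.4 CPM in BAC depleted, 5879 to 6688 CPM in BM nonsorted and 14 to 45.3 CPM in BM sorted. Ptprc (CD45) and Tyrobp had 0 counts in all 3 BAC depleted libraries. All 15 cell cycle markers also fell with depletion, from 527 to 661 CPM summed in BAC nondepleted to 59.4 to 169 CPM in BAC depleted, against 694 to 1009 CPM in BM sorted. Mitochondrial transcripts took 1.82% to 2.62% of counts in BAC depleted and 1.08% to 1.36% elsewhere. In bulk libraries fewer cells of a type and less RNA per cell cannot be told apart, and the part of these shifts in the results below was not tested. By its Xist and Ddx3y counts BAC depleted 1 did not come from the same animals as any of the other 11 libraries, BAC nondepleted included. For the rest nothing in the labels says whether the libraries of a group came from separate mice, and the p-values speak only for the variation among these samples, which in part may be technical.

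Together the 22 heat shock genes took 0.445% ± 0.0229 (SD, n = 3) of counts in BM nonsorted, 0.449% ± 0.0472 in BM sorted, 0.356% ± 0.0144 in BAC nondepleted and 0.324% ± 0.034 in BAC depleted. The unfolded protein genes took 0.894% ± 0.0334, 0.92% ± 0.181, 0.694% ± 0.0246 and 0.697% ± 0.0278, in the same order. Both mean shares were lower in the bone-associated groups, but the genes did not move as a block. By library the heat shock share did not overlap, with at least 0.397% in marrow and at most 0.372% in bone. The unfolded protein share did overlap: BM sorted 1 and BAC nondepleted 1 both had 0.715%, and BAC depleted 1 had 0.728%. A gene was called when its adjusted p (edgeR's quasi-likelihood F test, Benjamini-Hochberg over 15698 genes) was under 0.05.

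Flow sorting of marrow gave 0 called of the 42 genes, where 6.23% of all genes tested were called. At an unadjusted p under 0.05 edgeR had 2, Hspa4l and Pdia4, and DESeq2 also called 0 after adjustment. Magnetic depletion gave 11 of 42 (26.2%), 8 higher and 3 lower in BAC depleted, against 37.3% of all genes, of which 17.4% were higher and 19.9% lower. Between the purified groups 20 of 42 were called (47.6%), 8 higher in BM sorted and 12 higher in BAC depleted, against 47.4%, with 22.9% higher in BM sorted and 24.6% lower. Between the unpurified groups 10 were called (23.8%), 7 higher in marrow and 3 higher in bone, against 31.7%, with 14.9% higher in marrow and 16.8% lower. With all libraries in the fit, the share of the 42 genes called was thus no more than 0.2 percentage points above that of all genes in any of these comparisons. The unpurified count depended on the fit: with only those groups in it, 19 of the 42 were called, 13 higher and 6 lower in marrow. Over all genes that fit called 6225, and the shares are given at the end. Outside sorting the counts moved, and so did those over all genes, when 1 library was left out. Over these fits depletion had 5 to 14 calls (4379 to 5990 of all genes) and the purified comparison 11 to 24 (5678 to 7667). Depletion called 5 without BAC nondepleted 1 (27.9% of all genes) and 6 without BAC nondepleted 2 (27%). The purified comparison had 13 without BM sorted 2 (36.5%) and 11 without BM sorted 3 (35%), but 24 without BM sorted 1 (43.1%). The unpurified comparison had 2 to 6 without any 1 of its 6 libraries (18.2% to 25.8% of all genes).

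Both arms had called members outside the sorting comparison. Between the purified groups 14 of 22 heat shock genes were called, 5 higher and 9 lower in marrow, and 6 of 20 unfolded protein genes, 3 each way. With depletion 8 heat shock genes were called, 5 up and 3 down, and 3 unfolded protein genes, all up. The unpurified groups gave 7 heat shock and 3 unfolded protein calls. Median log2 fold changes over the 42 genes were -0.01 with sorting, 0.12 with depletion, 0.16 between purified and 0.09 between unpurified groups, beside 0, 0.05, -0.02 and -0.01 over all genes. In all of these comparisons the median of the 42 genes lay within 0.2 of 0 on the log2 scale.

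**Figure D1:**
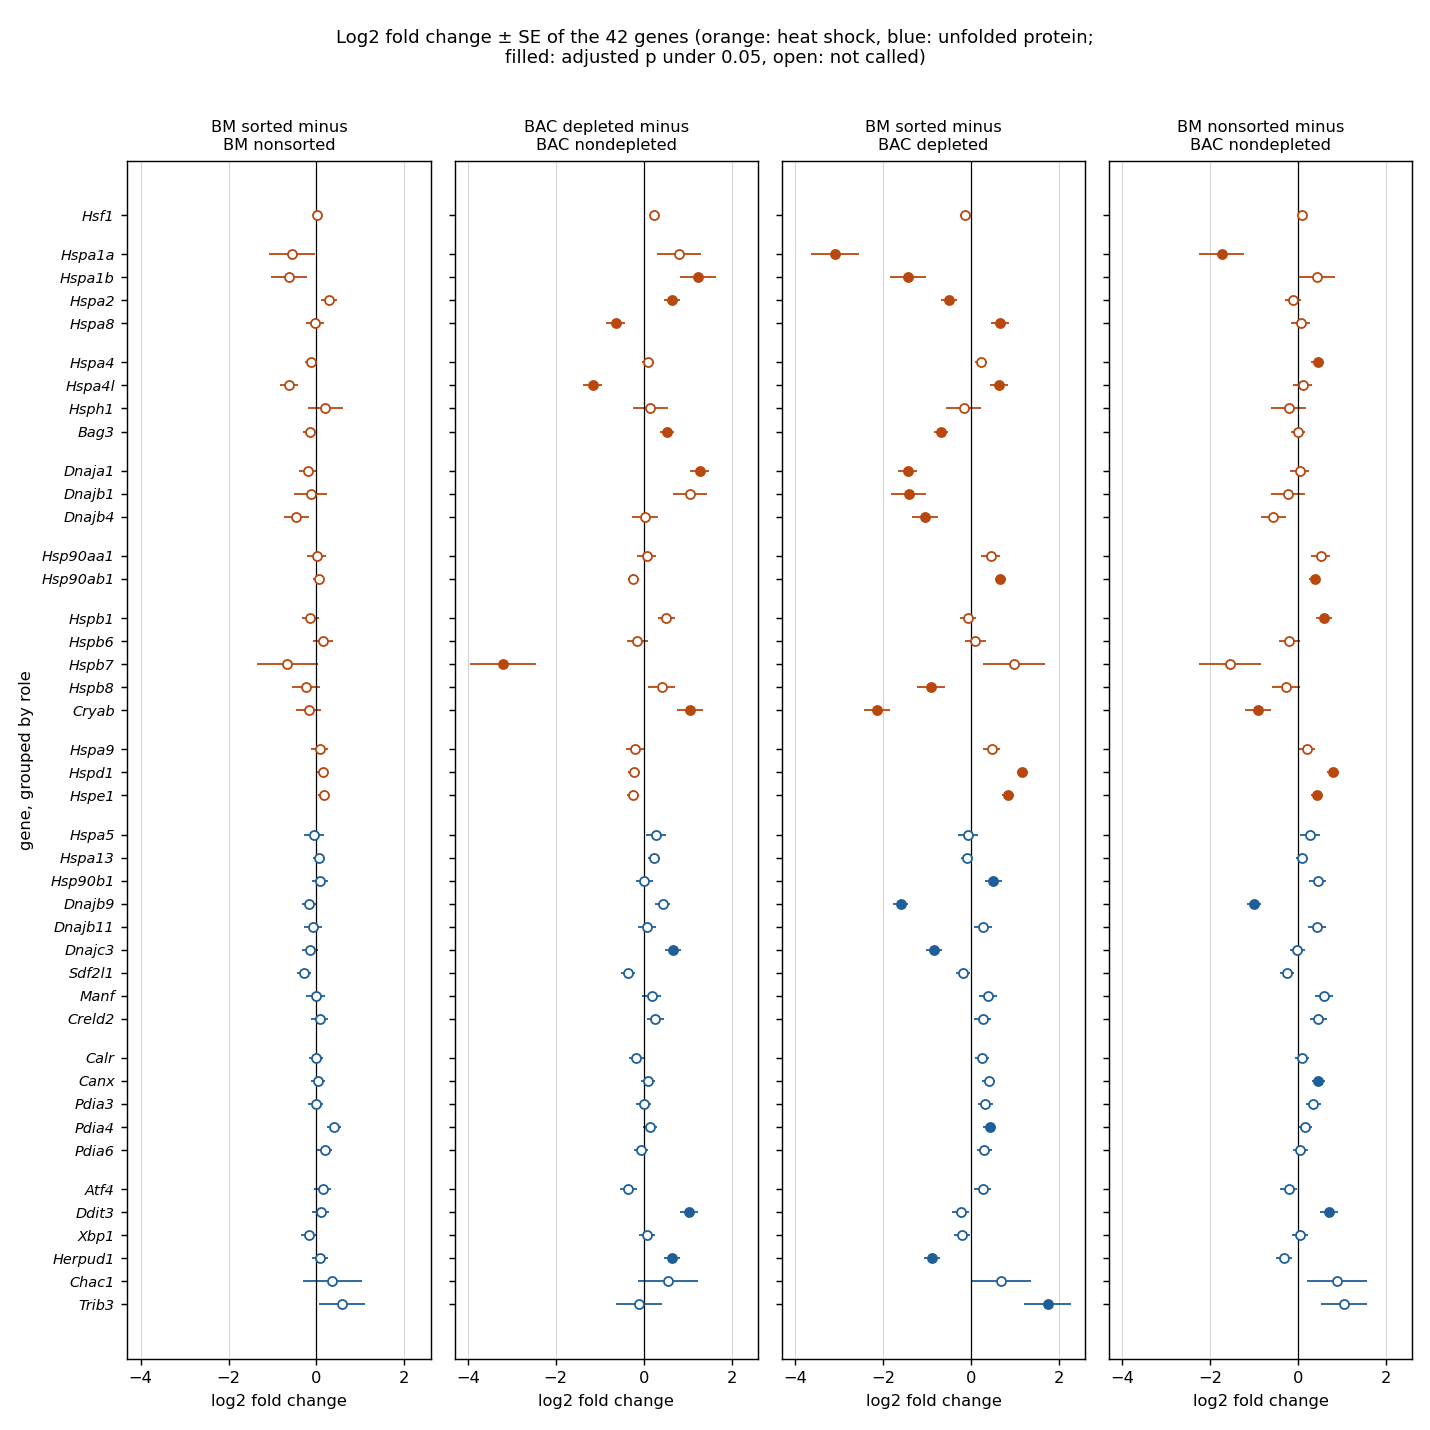
Log2 fold change with its SE for each of the 42 genes (vertical axis, grouped by role; orange, heat shock; blue, unfolded protein) in 4 comparisons; filled points have an adjusted p under 0.05. Sorting of marrow has no filled point, and the purified groups have 20, from Hspa1a at -3.09 to Trib3 at 1.74.

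The regulator itself, Hsf1, was at 29.4 ± 2.17 CPM in BM nonsorted, 29.7 ± 1.33 in BM sorted, 27.8 ± 1.18 in BAC nondepleted and 32.8 ± 3.06 in BAC depleted. It was not called in any comparison (0.24 with depletion, adjusted p = 0.067), although without BAC depleted 2 the depletion effect passed the threshold (0.30, adjusted p = 0.0383). With all libraries that effect also passed under upper quartile scaling and under a stricter low-count filter. Its mRNA level does not report its activity, which is set largely at the protein.

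Hspa1a and Hspa1b encode the stress-inducible cytosolic HSP70, and both were highest on average in BAC depleted. Hspa1a was at 2.49, 1.91 and 1.64 CPM in BM nonsorted, 1.51, 1.59 and 1.01 in BM sorted, 9.87, 5.45 and 4.88 in BAC nondepleted, and 3.53, 13.4 and 18.2 in BAC depleted. Every bone-associated library lay above every marrow library. BM sorted was below BAC depleted (log2 fold change -3.09 ± 0.55 SE, adjusted p = 0.00133), and BM nonsorted below BAC nondepleted (-1.74 ± 0.52, adjusted p = 0.0287). The second call was lost without BM nonsorted 1 (adjusted p = 0.058), BM nonsorted 2 (0.0894), BM nonsorted 3 (0.089), BAC nondepleted 1 (0.106) or BAC nondepleted 2 (0.0521). The depletion effect on Hspa1a missed the threshold (0.79 ± 0.50, adjusted p = 0.237) and passed it without BAC depleted 1 (1.23, adjusted p = 0.0185).

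Hspa1b was at 13.5, 8.36 and 8.63 CPM in BM nonsorted, 6.45, 7.4 and 5.91 in BM sorted, 7.28, 8.58 and 6.75 in BAC nondepleted, and 6.52, 25.6 and 20.9 in BAC depleted. BAC depleted 2 and 3 were above all other libraries, while BAC depleted 1 lay among the rest. Hspa1b was called higher with depletion (1.23 ± 0.41, adjusted p = 0.0379; 1.63 and 0.000599 without BAC depleted 1) and lower in BM sorted than in BAC depleted (-1.42 ± 0.41, adjusted p = 0.0164). The depletion call was lost without BAC nondepleted 1, 2 or 3 (0.0991, 0.074 and 0.106) and without BAC depleted 2 (0.127) or 3 (0.0906). The purified call was lost without BM sorted 3 (0.0614) or BAC depleted 2 (0.0576).

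The split between these neighbours is uncertain, since their mRNAs are nearly the same over long stretches: 58.8% of the 50-base windows of the Hspa1a transcript occur in that of Hspa1b, and 62.3% the other way round. Hspa1a took 14.6% to 19% of the counts of both genes in the 6 marrow libraries and 34.3% to 57.5% in the 6 bone-associated libraries. The exact 95% binomial intervals, which cover counting error only, reached at most 24.6% in marrow and went down to at least 29.9% in bone. Summed into 1 entry, a choice made after seeing the data, the pair was at 6.92 to 16 CPM in marrow, 11.6 to 17.1 CPM in BAC nondepleted and 10, 39 and 39.1 CPM in BAC depleted. The summed entry remained lower in BM sorted than in BAC depleted (-1.88 ± 0.44, adjusted p = 0.00568). It was not called between the unpurified groups (-0.23 ± 0.42, adjusted p = 0.711) or with depletion (1.04 ± 0.43, adjusted p = 0.0788). Without BAC depleted 1, also a choice made after seeing the data, the sum rose with depletion (1.45 ± 0.22, adjusted p = 0.00117) and its sorting effect fell below its depletion effect (-2.07 ± 0.30, adjusted p = 0.00615; -1.65 and 0.118 with all libraries).

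Hspa8, the constitutive cytosolic HSP70, went the other way. It was at 906, 817 and 716 CPM in BM nonsorted, 684, 818 and 882 in BM sorted, 797, 818 and 734 in BAC nondepleted, and 337, 632 and 540 in BAC depleted. All 3 BAC depleted libraries were below the other 9. Hspa8 fell with depletion (-0.64 ± 0.21, adjusted p = 0.038) and was higher in BM sorted than in BAC depleted (0.66 ± 0.21, adjusted p = 0.0268). The first call did not hold when BAC depleted 1 was left out (-0.42, adjusted p = 0.0647), nor without BAC nondepleted 1, 2 or 3 (0.0852, 0.0965 and 0.06), and the second was lost without BM sorted 2 (0.075) or 3 (0.0924). Hspa2, an HSP70 best known from testis, rose with depletion (0.65, adjusted p = 0.019) and was lower in BM sorted than in BAC depleted (-0.49, adjusted p = 0.0477). Its depletion call was lost without BAC nondepleted 1 (0.0721) or 3 (0.0502) or BAC depleted 3 (0.0615), and its purified call without any 1 of the BM sorted libraries (0.122, 0.0689 and 0.129) or BAC depleted 3 (0.175).

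J proteins deliver clients to HSP70 and stimulate its ATPase, and Dnaja1 gave the firmest rise of the heat shock genes with depletion. Dnaja1 was at 62.2, 64 and 65.8 CPM in BM nonsorted, 48.9, 57.4 and 61.6 in BM sorted, 73.2, 60.6 and 53.5 in BAC nondepleted, and 96.8, 180 and 178 in BAC depleted. The BAC depleted libraries, at 151 ± 47.3 CPM, lay above all others without overlap. Dnaja1 rose with depletion (1.28 ± 0.22, adjusted p = 0.00128), and BM sorted was below BAC depleted (-1.43 ± 0.22, adjusted p = 0.000557). Both calls held under every alternative tried.

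Dnajb1, an HSP40 strongly induced by heat shock, was at 48.1, 52.5 and 49.8 CPM in BM nonsorted, 45.4, 47.7 and 43.8 in BM sorted, 62.8, 64.8 and 49.2 in BAC nondepleted, and 42.3, 154 and 170 in BAC depleted. BAC depleted 1 was the lowest of all 12 libraries and BAC depleted 2 and 3 were the highest. The depletion effect missed the threshold (1.05 ± 0.39, adjusted p = 0.0556) and passed it without BAC depleted 1 (1.46, adjusted p = 2.45e-05). With all libraries it also passed under upper quartile scaling, under a stricter low-count filter and with DESeq2. Dnajb1 was lower in BM sorted than in BAC depleted (-1.42 ± 0.39, adjusted p = 0.0133).

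Dnajb4, another cytosolic J protein, was at 105, 93.8 and 97.8 CPM in BM nonsorted, 62.2, 83.5 and 70.4 in BM sorted, 138, 142 and 158 in BAC nondepleted, and 73.9, 165 and 206 in BAC depleted. BAC depleted 1 again fell within the marrow range. The purified difference was called (-1.04 ± 0.29, adjusted p = 0.0144) and was lost without BM sorted 1 (0.0522), BM sorted 3 (0.0504) or BAC depleted 3 (0.0518).

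HSP110 proteins and BAG3 release nucleotide from HSP70. Hspa4l, an HSP110, was at 25.2, 22.2 and 17.9 CPM in BM nonsorted, 10.2, 16.6 and 15.4 in BM sorted, 18.3, 19.3 and 23.1 in BAC nondepleted, and 7.15, 10.3 and 9.67 in BAC depleted. Each purified group lay below its own unpurified group, and the fall was called with depletion (-1.16 ± 0.21, adjusted p = 0.00209), under every alternative too, but not with sorting (-0.63 ± 0.21, adjusted p = 0.15). The difference between these effects was not called (0.53, adjusted p = 0.295). BM sorted was above BAC depleted (0.64 ± 0.21, adjusted p = 0.0306), a call lost without BM sorted 2 (0.12), BM sorted 3 (0.0958) or BAC depleted 1 (0.0965). Bag3, which also feeds clients to selective autophagy, was at 89 ± 5.68 CPM in BAC nondepleted and 129 ± 25.8 in BAC depleted. It rose with depletion (0.53 ± 0.16, adjusted p = 0.0227) and was lower in BM sorted than in BAC depleted (-0.68 ± 0.16, adjusted p = 0.00551); the first call was lost without BAC nondepleted 1 (0.0821) or 2 (0.0669) or BAC depleted 2 (0.0512) or 3 (0.0754). Hspa4 was higher in unpurified marrow than in unpurified bone (0.44 ± 0.14, adjusted p = 0.0358), which held only without BM nonsorted 3 among the fits that left out 1 of those 6 libraries (the others gave 0.0548 to 0.127). Hsph1 was not called in any comparison.

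Of the cytosolic HSP90 genes, Hsp90ab1, the constitutive form, was at 1652 ± 31.6 CPM in BM nonsorted, 1712 ± 88.5 in BM sorted, 1270 ± 48.6 in BAC nondepleted and 1079 ± 119 in BAC depleted. It was higher in marrow both between purified (0.67 ± 0.13, adjusted p = 0.00209) and between unpurified groups (0.38 ± 0.13, adjusted p = 0.0451). The unpurified call was lost without any 1 of the 6 libraries (0.0859 to 0.126). Hsp90aa1, the inducible form, had log2 fold changes of 0.45 and 0.51 in the same comparisons and was not called (adjusted p = 0.108 and 0.0927). With the unpurified groups fitted alone, Hsp90aa1 was called higher in marrow.

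**Figure D2:**
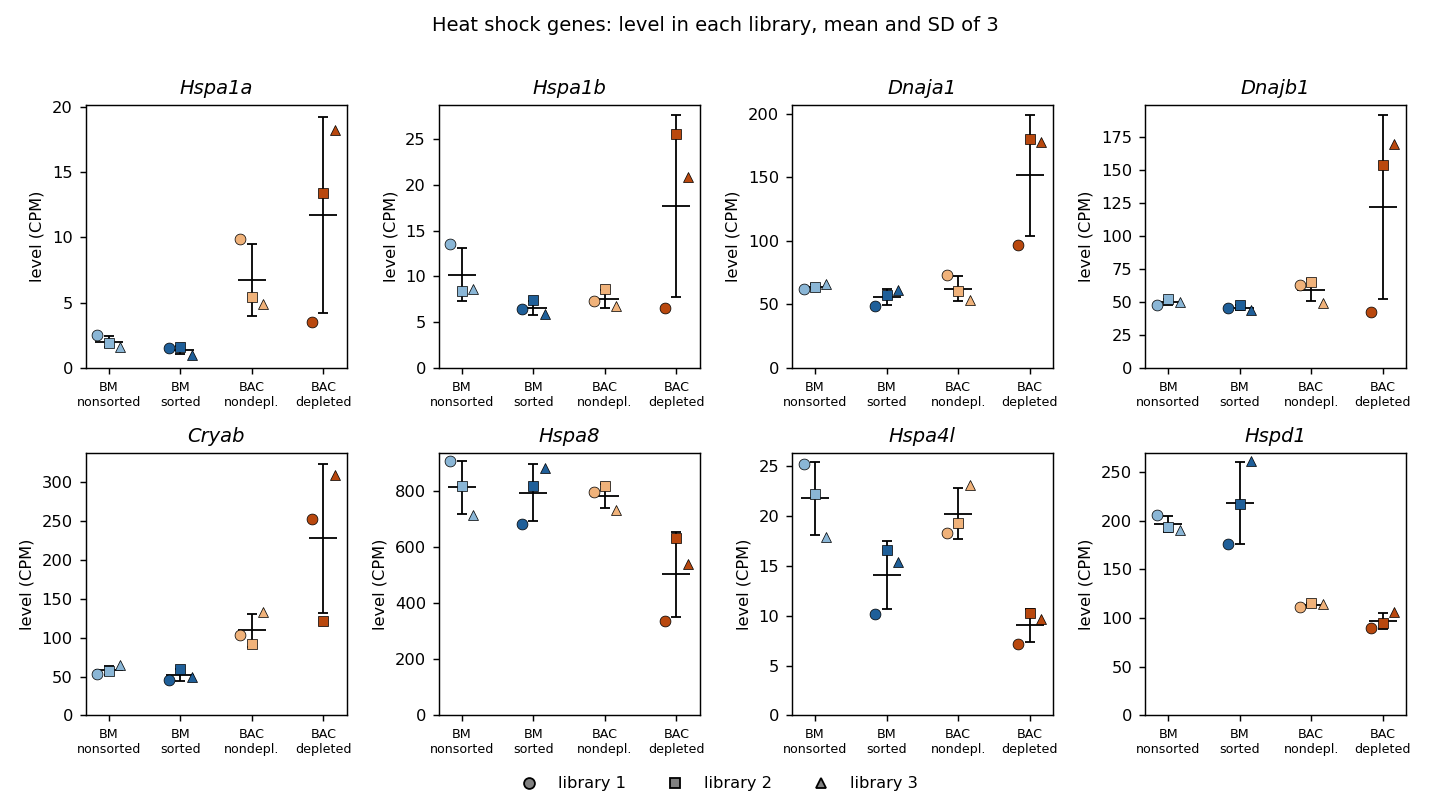
Levels in CPM (vertical axes, linear from 0, one scale per gene) of 8 heat shock genes in each library (circle, square and triangle for libraries 1, 2 and 3), with the mean and SD of each group of 3. In BAC depleted, library 1 sits below the other 2 for every gene shown except Cryab, so also for Hspa8, Hspa4l and Hspd1.

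Small heat shock proteins hold unfolding clients in a soluble state and are abundant in muscle. Cryab, or alpha B crystallin, was at 52.8, 57.5 and 64.4 CPM in BM nonsorted, 45.4, 60.4 and 48.9 in BM sorted, 103, 92.3 and 133 in BAC nondepleted, and 253, 122 and 309 in BAC depleted. All bone-associated libraries were above all marrow libraries, and BAC depleted 1 was among the high ones. Cryab was lower in BM sorted than in BAC depleted (-2.14 ± 0.30, adjusted p = 0.000373) and in BM nonsorted than in BAC nondepleted (-0.91 ± 0.29, adjusted p = 0.0362), and it rose with depletion (1.06 ± 0.29, adjusted p = 0.0167). The purified call held under every alternative. The unpurified call was lost without any 1 of its 6 libraries (0.0546 to 0.108), and the depletion call without BAC nondepleted 1 (0.0566) or 2 (0.0659) or BAC depleted 3 (0.0557).

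Cryab has Hspb2, a small heat shock gene outside the 42, as its neighbour in the RefSeq gene order. Hspb2 was also lower in marrow, by -3.53 ± 0.74 between purified (adjusted p = 0.00318) and -3.27 ± 0.73 between unpurified groups (adjusted p = 0.00862). Its levels were low, at 0.3 ± 0.182 CPM in BM nonsorted, 0.276 ± 0.181 in BM sorted, 2.92 ± 0.435 in BAC nondepleted and 3.26 ± 2.68 in BAC depleted. Cell type markers differed in the same comparisons. The 10 contractile smooth muscle markers summed to 8299 to 12020 CPM in the marrow libraries, 1406 to 2783 in BAC nondepleted and 2108 to 4547 in BAC depleted, and 8 of 10 were higher in BM sorted than in BAC depleted. Cartilage markers were highest in BAC depleted: they summed to 3000 to 3995 CPM in BM nonsorted, 1131 to 3978 in BM sorted, 1926 to 4634 in BAC nondepleted and 9107 to 37547 in BAC depleted. Of their 8 tested genes 5 rose with depletion, and 5 were lower and 1 higher in BM sorted than in BAC depleted. Osteoblast markers summed to 15789 to 19518 CPM in BM nonsorted, 21911 to 22955 in BM sorted, 14224 to 29041 in BAC nondepleted and 4211 to 10085 in BAC depleted, though by gene 5 of 9 rose and 1 fell with depletion (2 rose and 2 fell without BAC depleted 1). The part of these cells in the results was not tested.

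Hspb7, a small heat shock protein of heart and muscle, had the largest fall of the 42 genes with depletion. It was at 8.4, 9.28 and 16.4 CPM in BM nonsorted, 8.59, 6.92 and 6 in BM sorted, 17.4, 31.1 and 51.2 in BAC nondepleted, and 8.27, 1.77 and 0.75 in BAC depleted. The bone-associated groups did not overlap. The fall was -3.19 ± 0.75 (adjusted p = 0.00825), and -4.7 without BAC depleted 1 (adjusted p = 0.000504). Without that library Hspb7 was also higher in BM sorted than in BAC depleted (2.49, adjusted p = 0.00652), where the fit of all libraries gave 0.98 (adjusted p = 0.281). Hspb8, the BAG3 partner, was lower in BM sorted than in BAC depleted (-0.91 ± 0.32, adjusted p = 0.037), a call lost without any 1 of the BM sorted libraries (0.119, 0.0571 and 0.0604) or BAC depleted 1 (0.107) or 2 (0.0813). Hspb1, or HSP25, was higher in BM nonsorted than in BAC nondepleted (0.59 ± 0.19, adjusted p = 0.0357); only leaving out BM nonsorted 3 kept that call (the other 5 libraries gave 0.0695 to 0.129). With depletion Hspb1 had 0.51 (adjusted p = 0.0527), and 0.67 without BAC depleted 1 (adjusted p = 0.0165). This rise was also called with all libraries under upper quartile scaling, under a stricter low-count filter and with DESeq2. Hspb6 was not called in any comparison.

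Hspd1 and Hspe1 encode HSP60 and HSP10, the partners of the mitochondrial chaperonin. The Hspe1 stretch above carries the array of heat shock units, which was also found in 1 of the 2 windows of Hspd1. Hspd1 was at 206, 193 and 190 CPM in BM nonsorted, 176, 217 and 261 in BM sorted, 111, 115 and 114 in BAC nondepleted, and 89.3, 95 and 106 in BAC depleted. Every marrow library lay above every bone-associated library. Hspd1 was higher in BM sorted than in BAC depleted (1.17 ± 0.13, adjusted p = 0.000123) and in BM nonsorted than in BAC nondepleted (0.79 ± 0.13, adjusted p = 0.0024).

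Hspe1 was at 29.2, 29.9 and 31.5 CPM in BM nonsorted, 29.1, 33.9 and 38.2 in BM sorted, 23.5, 22.2 and 21.4 in BAC nondepleted, and 16.6, 17.3 and 22.6 in BAC depleted. Again all 6 marrow libraries exceeded all 6 bone-associated ones. Hspe1 was higher in marrow between purified (0.84 ± 0.13, adjusted p = 0.000766) and unpurified groups (0.43 ± 0.13, adjusted p = 0.0321); the unpurified call was lost without any 1 of its 6 libraries (0.0663 to 0.0926). Hspa9, the mitochondrial HSP70, was not called in any comparison, but was higher in BM sorted than in BAC depleted without BM sorted 1 (0.62, adjusted p = 0.0314). Neither Hspd1 nor Hspe1 was called with sorting or depletion; without BAC depleted 3, Hspe1 fell with depletion (-0.41, adjusted p = 0.0253). The cell cycle markers, given above, also had their highest summed levels in marrow and their lowest in BAC depleted, and their part in these differences was not tested.

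CCT, the cytosolic chaperonin that folds actin and tubulin, was taken as a list outside the 42. All 8 subunits were higher in BM sorted than in BAC depleted (median 0.85, with Cct2 at 1.14 ± 0.16, adjusted p = 0.000336), 5 of 8 were higher in BM nonsorted than in BAC nondepleted and 4 of 8 fell with depletion. Over all genes the shares called in either direction were 47.4%, 31.7% and 37.3% in these comparisons, and they apply to the lists below as well. Their summed level was 1966 to 2071 CPM in BM nonsorted, 1823 to 2218 in BM sorted, 1507 to 1532 in BAC nondepleted and 925 to 1258 in BAC depleted.

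Of 31 tested genes of a list of further cytosolic and mitochondrial chaperones, 11 were higher and 5 lower in BM sorted than in BAC depleted (median 0.16), 7 were higher and 2 lower in BM nonsorted than in BAC nondepleted, and 4 rose and 5 fell with depletion. Not called were 15, 22 and 22 of the 31, so each share called lay within 10 percentage points of that of all genes. Sorting called 0 of these 31 and 0 of the CCT subunits. Fkbp5, a glucocorticoid-inducible HSP90 co-chaperone, stood at 37.8 ± 4.88 CPM in BM nonsorted, 29.6 ± 3.36 in BM sorted, 13.9 ± 0.749 in BAC nondepleted and 2.05 ± 0.995 in BAC depleted. It was higher in BM sorted than in BAC depleted (3.85 ± 0.29, adjusted p = 2.45e-05) and fell with depletion (-2.76 ± 0.28, adjusted p = 4.82e-05). Fkbp4, its close relative, was higher in purified marrow (1.13 ± 0.14, adjusted p = 0.000185), and Hspa12b, an HSP70 relative of endothelium, was lower there (-2.25 ± 0.37, adjusted p = 0.000823).

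Immediate-early genes such as Fos, Fosb and Jun are switched on within minutes of disturbance, including tissue digestion, and their levels are set here beside the inducible chaperones. The 21 genes summed to 2273, 2400 and 2640 CPM in BM nonsorted, 1293, 1256 and 1307 in BM sorted, 11677, 10098 and 8056 in BAC nondepleted, and 1737, 13626 and 16759 in BAC depleted. BAC depleted 1 lay in the marrow range, as it did for Hspa1b and Dnajb4, and for Dnajb1 it lay below that range. Of the 21, 16 were lower and 1, Fosl1, was higher in BM sorted than in BAC depleted, with Fosb at -7.99 ± 1.06 (adjusted p = 0.000299) and Fos at -5.94 ± 0.91 (adjusted p = 0.000636). Between the unpurified groups 8 were lower in marrow; with depletion only Klf6 was called, downwards (-1.14, adjusted p = 0.0237), and with sorting 0 were. BAC depleted 1 decided the depletion count: without it, a choice made after seeing the data, 5 rose, namely Ier2 (1.29, adjusted p = 0.000722), Junb (0.80, 0.00372), Btg2 (0.87, 0.00379), Egr1 (1.38, 0.00535) and Zfp36 (1.30, 0.00692), and Klf6 fell (-0.78, 0.00582), 6 of 21 in all against 34.3% of all genes. The difference between the purification effects then called 12 of 21, all lower, instead of 0 (10% of all genes), and BM sorted was below BAC depleted for 19 of 21. The part of these genes' activation in the chaperone differences was not tested.

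**Figure D3:**
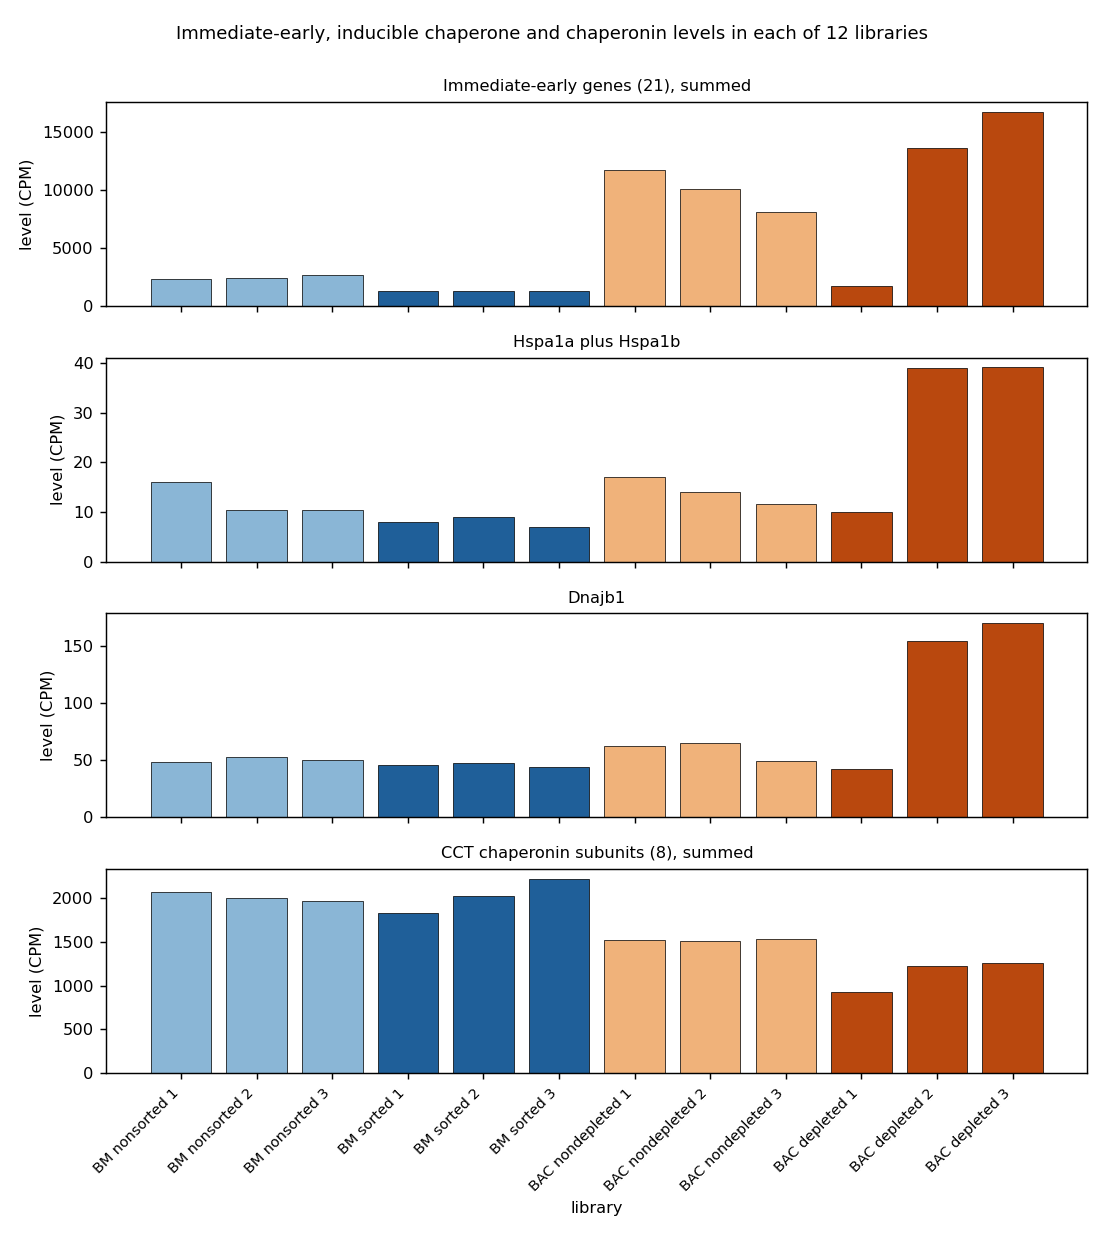
Level in CPM (vertical axes, linear from 0) in each of the 12 libraries for 21 immediate-early genes summed, Hspa1a plus Hspa1b, Dnajb1, and 8 CCT subunits summed. BAC depleted 1 has 1737 CPM of immediate-early genes where BAC depleted 2 and 3 have 13626 and 16759.

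The central ER chaperone Hspa5, or BiP, which holds the sensors of the unfolded protein response inactive and is a standard read-out of that response, was not called in any comparison. It was at 1531, 1390 and 1417 CPM in BM nonsorted, 894, 1567 and 1689 in BM sorted, 1159, 1136 and 1278 in BAC nondepleted, and 1177, 1481 and 1674 in BAC depleted. BM sorted 1 was the lowest and BM sorted 3 the highest of all 12. Between purified groups the log2 fold change was -0.06 ± 0.23 (adjusted p = 0.847), and between unpurified groups 0.28 (adjusted p = 0.372).

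Hsp90b1, the ER form of HSP90, had 1584 ± 322 CPM in BM sorted against 1109 ± 164 in BAC depleted and was called higher in marrow there (0.51 ± 0.19, adjusted p = 0.0452); the call was lost without BM sorted 2 (0.144) or 3 (0.16) or BAC depleted 1 (0.0918) or 2 (0.118). Hspa13, Dnajb11, Sdf2l1, Manf and Creld2, which assist BiP or are induced with it, were not called in any comparison with all libraries and TMM scaling. Their log2 fold changes lay between -0.35 (Sdf2l1 with depletion) and 0.59 (Manf between unpurified groups). In a fit of the unpurified groups alone, Dnajb11, Manf and Creld2 were called higher in marrow and Sdf2l1 lower. Manf was also called higher there with upper quartile scaling of all libraries. Without BAC depleted 3, Sdf2l1 fell with depletion (-0.53, adjusted p = 0.022).

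Unlike its partner BiP, Dnajb9, an ER J protein that is a target of IRE1 and XBP1 and restrains IRE1, separated marrow from bone. It was at 33.4, 29.9 and 24.4 CPM in BM nonsorted, 23.2, 31.3 and 23.6 in BM sorted, 59.3, 56.3 and 60.3 in BAC nondepleted, and 63.4, 84.9 and 88.8 in BAC depleted. All bone-associated libraries were above all marrow libraries, and BAC depleted 1 was on the bone side. Dnajb9 was lower in BM sorted than in BAC depleted (-1.60 ± 0.17, adjusted p = 8.19e-05) and in BM nonsorted than in BAC nondepleted (-1.0 ± 0.17, adjusted p = 0.00225), both under every alternative. With depletion it had 0.43 (adjusted p = 0.0622), and 0.57 without BAC depleted 1 (adjusted p = 0.0191). The depletion rise was also called with all libraries under upper quartile scaling and under a stricter low-count filter.

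Dnajc3, or P58IPK, an ER J protein whose promoter stretch is shown above, was at 229, 191 and 161 CPM in BM nonsorted, 138, 193 and 195 in BM sorted, 203, 192 and 193 in BAC nondepleted, and 257, 355 and 326 in BAC depleted. BAC depleted lay above all other libraries. Dnajc3 rose with depletion (0.67 ± 0.18, adjusted p = 0.0137) and was lower in BM sorted than in BAC depleted (-0.83 ± 0.18, adjusted p = 0.00352), with no difference called between the unpurified groups (-0.02, adjusted p = 0.953).

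The lectin chaperones calreticulin (Calr) and calnexin (Canx) fold glycoproteins, with disulfides formed by Pdia3, Pdia4 and Pdia6. Canx was at 922, 806 and 732 CPM in BM nonsorted, 700, 911 and 914 in BM sorted, 568, 593 and 627 in BAC nondepleted, and 561, 633 and 719 in BAC depleted. The unpurified groups did not overlap (0.46 ± 0.15, adjusted p = 0.043), but the call was lost without 5 of the 6 libraries, all but BM nonsorted 3 (0.0718 to 0.15). The purified groups overlapped and were not called (0.40, adjusted p = 0.0521). Canx was called there with all libraries under upper quartile scaling, without the low-count filter and with DESeq2. Pdia4 was higher in BM sorted than in BAC depleted (0.43 ± 0.15, adjusted p = 0.0427), a call lost without BM sorted 2 (0.0959) or 3 (0.153) or BAC depleted 1 (0.0801) or 2 (0.125). Calr, Pdia3 and Pdia6 were not called in any comparison with all libraries in the fit. With the unpurified groups fitted alone, Pdia3 was called higher in marrow.

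BM sorted 1 decided much of this ER result. The unfolded protein genes took 0.715% of its counts, against 0.984% and 1.06% in BM sorted 2 and 3. Without it the purified comparison had 24 calls among the 42 genes (57.1%, against 43.1% of all genes in the same fit), and Manf (0.63, adjusted p = 0.009), Canx (0.52, 0.0229), Calr (0.42, 0.0329), Creld2 (0.46, 0.0382), Pdia3 (0.48, 0.039) and Dnajb11 (0.48, 0.0463) were higher in marrow. Without BAC depleted 3, Pdia6 (0.49, adjusted p = 0.0231) and Canx (0.49, 0.035) were.

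The stress transcription factors Atf4 and Xbp1 were not called with all libraries in the fit, and Xbp1 was lower in BM sorted than in BAC depleted without BAC depleted 1 (-0.40, adjusted p = 0.0327). Both are controlled largely after transcription, by translation and by splicing, which counts per gene do not report. Ddit3 (CHOP), a transcription factor induced through ATF4, was at 15.7, 14.1 and 11.9 CPM in BM nonsorted, 12, 17.7 and 14.8 in BM sorted, 7.15, 9.6 and 8.8 in BAC nondepleted, and 21.2, 14 and 17.1 in BAC depleted. BAC nondepleted was below all other libraries. Ddit3 rose with depletion (1.03 ± 0.20, adjusted p = 0.00285), under every alternative, and was higher in BM nonsorted than in BAC nondepleted (0.70 ± 0.20, adjusted p = 0.0231), a call lost without BM nonsorted 1 (0.0802) or 2 (0.0649) or BAC nondepleted 1 (0.087). BAC nondepleted is also the group with the highest summed macrophage markers, and the part of those cells in its low level was not tested.

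Trib3, a pseudokinase induced by ATF4 and CHOP, was at 15.3, 10.4 and 6.79 CPM in BM nonsorted, 9.27, 22.9 and 16.5 in BM sorted, 1.71, 6.36 and 7.62 in BAC nondepleted, and 3.63, 4.92 and 6 in BAC depleted. It was higher in BM sorted than in BAC depleted (1.74 ± 0.53, adjusted p = 0.0214), without overlap, though not without BM sorted 2 (0.0814) or 3 (0.0517) or BAC depleted 1 (0.0658). Chac1, a glutathione-degrading ATF4 target, had 10.5 ± 4.54 CPM in BM sorted against 6.52 ± 5.04 in BAC depleted and was not called in any comparison.

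Herpud1, a membrane protein of ER-associated degradation, was at 67.2, 56.5 and 45.7 CPM in BM nonsorted, 53.3, 67.7 and 58.4 in BM sorted, 65.4, 67.8 and 77.6 in BAC nondepleted, and 103, 88.5 and 140 in BAC depleted. All BAC depleted libraries were the highest. It was lower in BM sorted than in BAC depleted (-0.88 ± 0.19, adjusted p = 0.00346) and rose with depletion (0.65 ± 0.19, adjusted p = 0.0202); the second call was lost without BAC nondepleted 1 (0.0722) or 2 (0.0679) or BAC depleted 3 (0.0662). Ddit3, Trib3 and Herpud1 thus ordered the groups differently; the promoter windows of Herpud1 and Trib3 both hold TGATGNAA.

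**Figure D4:**
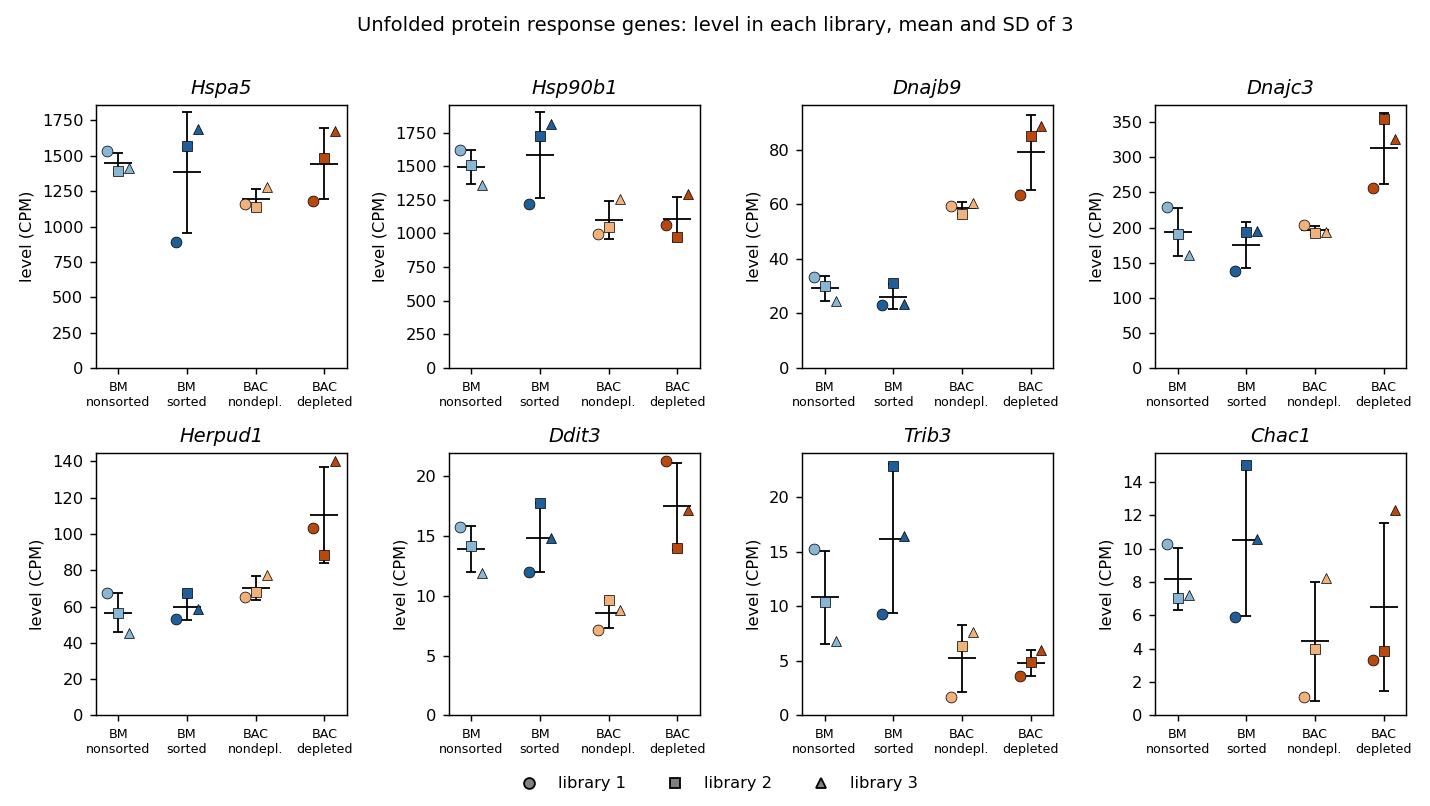
Levels in CPM (vertical axes, linear from 0, one scale per gene) of 8 unfolded protein genes in each library (circle, square and triangle for libraries 1, 2 and 3), with the mean and SD of each group of 3. Dnajb9 is between 23.2 and 33.4 in marrow and between 56.3 and 88.8 in bone-associated libraries, while the Hspa5 groups overlap.

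Among 32 further genes of the unfolded protein response and ER-associated degradation, 8 were higher and 9 lower in BM sorted than in BAC depleted (median -0.03), 6 were higher and 5 lower in BM nonsorted than in BAC nondepleted, and 7 rose and 8 fell with depletion. Not called were 15, 21 and 17 of the 32, again within 10 percentage points of the shares of all genes. Without BAC depleted 1, 6 were higher and 11 lower in BM sorted than in BAC depleted (46.1% of all genes called). In that fit 7 rose and 6 fell with depletion (34.3% of all genes). Crebrf, a regulator that restrains CREB3 in this response, had 26 ± 6.14 CPM in BM sorted against 104 ± 10.9 in BAC depleted (-2.0 ± 0.17, adjusted p = 3.37e-05), with Ero1b, an ER oxidase, also lower in marrow (-1.35 ± 0.20, adjusted p = 0.000458). Pdia5, a disulfide isomerase, was higher there (1.49 ± 0.22, adjusted p = 0.000461), as was Ostc, a subunit of the oligosaccharyltransferase (1.11 ± 0.14, adjusted p = 0.000209). Ero1b was also the 1 gene of this list called with sorting, where it fell (-1.40 ± 0.20, adjusted p = 0.000946).

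The integrated stress response list, 18 genes downstream of PERK and its sister kinases, had members that moved each way. Between purified groups 10 were higher and 4 lower in marrow (median 0.59), between unpurified groups 8 were higher and 4 lower, depletion called 1 each way and sorting 0. Without BAC depleted 1, 8 were higher and 4 lower between purified groups (46.1% of all genes called). Psat1, of serine synthesis, had 132 ± 40.5 CPM in BM sorted against 28.4 ± 10.9 in BAC depleted (2.22 ± 0.35, adjusted p = 0.000676), and Shmt2, of mitochondrial one-carbon metabolism, 152 ± 41.3 against 43.6 ± 2.96 (1.80 ± 0.20, adjusted p = 0.000109). Ppp1r15a (GADD34), which ends the translation block, was lower in marrow, at 30.1 ± 6 against 165 ± 103 CPM (-2.45 ± 0.47, adjusted p = 0.00211), as was the transcription factor Cebpb (-1.88 ± 0.39, adjusted p = 0.00306). With depletion Sesn2, a stress-induced inhibitor of mTORC1 signalling, was the gene that rose (1.17 ± 0.18, adjusted p = 0.000636).

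The comparisons of purified and of unpurified groups share no library, so their calls can be set side by side. Of the 42 genes 6 were called in both, all in the same direction: Hspd1, Hspe1 and Hsp90ab1 higher in marrow, and Hspa1a, Cryab and Dnajb9 higher in bone. They are 14.3% of the 42 genes, 30% of the purified calls and 60% of the unpurified ones. Over all genes tested 3282 were called in both in the same direction, which is 20.9% of genes, 44.1% of the purified calls and 65.9% of the unpurified ones, so the 42 genes were not above the background here. Hspa1a belongs to this set only while it is counted apart from Hspa1b.

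Whether purification acted differently in marrow and in bone was tested as the sorting effect minus the depletion effect. Only Dnaja1 of the 42 genes was called (-1.47 ± 0.30, adjusted p = 0.0195; 2.38% of the 42 against 8.06% of all genes), its sorting effect being -0.19 and its depletion effect 1.28. The call was lost without BM nonsorted 2 (0.0529), BM sorted 2 (0.0502) or BAC nondepleted 2 (0.0526). Without BAC depleted 1 the count rose to 8 (19%, against 10% of all genes in the same fit): Dnaja1 (-1.71, adjusted p = 0.002), Hspa1b (-2.25, 0.00438), Dnajb1 (-1.6, 0.0015), Hspa1a (-1.78, 0.0413), Bag3 (-0.83, 0.0257), Dnajb4 (-0.81, 0.0301), Dnajc3 (-0.94, 0.0378) and, upwards, Hspb7 (4.03, 0.0118). It was 3 without BAC depleted 2 (7.14%, against 9.42% of all genes), with Cryab (-1.53, 0.0053) and Ddit3 (-1.07, 0.0382), and 2 without BAC depleted 3 (4.76%, against 9.97%), with Hspe1 (0.58, 0.0492). For most of the 42 genes, then, the difference between the purification effects was not called.

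The spread between libraries was uneven across groups. The fit of all libraries shared its estimate of the spread over the groups, and the part of this in the calls was not tested. For the heat shock genes the median coefficient of variation over 3 libraries was highest in BAC depleted (27.7%), against 12.5% in BAC nondepleted, 14.7% in BM sorted and 11% in BM nonsorted. For the unfolded protein genes it was highest in BM sorted (18.8%), against 17.1% in BAC depleted, 6.95% in BAC nondepleted and 13.6% in BM nonsorted. Over all genes tested it was 23.6% in BAC depleted, 12.8% in BAC nondepleted, 13.1% in BM sorted and 12.4% in BM nonsorted. Over tested genes with a mean of at least 5 CPM it was lower, at 17.8%, 9.31%, 9.68% and 9.21% in the same order. Against these, the heat shock genes had the larger median in every group. The unfolded protein genes had the larger median in both marrow groups only.

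Across the 12 libraries the genes whose log2 CPM followed Hspa1a most closely, of 10840 with a mean of at least 5 CPM, were Zfp91 (Pearson r = 0.974), Rnf139 (0.973), Zfp36 (0.962), Dhrs1 (0.961) and Pld1 (0.953). For Hspa5 they were Spcs2 (0.879), Slc39a6 (0.852), Caml (0.849), Gtpbp4 (0.832) and Pak1ip1 (0.829). The libraries fall into 4 groups that share their preparation, so these values describe the pattern and carry no test.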

How the data were processed

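Read counts per gene, deposited by the authors for all 12 libraries, were made with STAR 2.7.9a, featureCounts of Subread 2.0.1 and MultiQC 1.7 on GRCm39, per the submitters' processing notes. No source used here states the annotation release or the strand setting, which leaves overlapping and near-identical genes uncertain.

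The analysis used edgeR 4.0.16 (R 4.3.3): filterByExpr, TMM scaling, 1 fit of all libraries with a mean per group (8 residual degrees of freedom), robust quasi-likelihood F tests and Benjamini-Hochberg adjustment over 15698 genes. The SE of a log2 fold change is its absolute value over the square root of F. The procedure was also run on simulated data with the same spread in every group and few changed genes. That setting differs from these data, so it does not test the fit under the uneven spread found here. Alternatives were other scalings, filters, a replicate block, a test against a minimum fold change, fits of the compared groups alone, DESeq2 1.42.0 and leaving out each library. Genes called at a log2 fold change of 1 or more in either direction, or among the 3 smallest adjusted p of their set, are given library by library; Hspa5 and Hspa8 were added for their role. From other lists up to 2 genes per direction are named. Members and lists were chosen with earlier results of these data known. Deviations of same-numbered libraries correlated weakly and with mixed sign (-0.223 to 0.237), so numbers were not used to pair them. For BAC depleted with BAC nondepleted all were positive (0.237, 0.0439 and 0.0711 for numbers 1, 2 and 3). The highest of these is for number 1, where Xist and Ddx3y differ between the libraries.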

Additional observations from a re-analysis of the deposited data

Results flagged for a closer look

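Dnaja1, an HSP70 co-chaperone, was the 1 gene of the 42 for which the effect of sorting in marrow and that of depletion in bone differed by the test of the difference itself: the sorting effect minus the depletion effect was -1.47 on the log2 scale (edgeR's quasi-likelihood F test, adjusted p = 0.0195). Dnaja1 was at 64 ± 1.84 CPM in BM nonsorted and 56 ± 6.48 in BM sorted, against 62.4 ± 9.99 in BAC nondepleted and 151 ± 47.3 in BAC depleted (SD, n = 3). Leaving out 1 library at a time gave adjusted p from 0.002 to 0.0529.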

How the results depend on the processing

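None of the 42 genes changed direction past the threshold under any alternative: of 3156 values of single genes 2936 kept their side of the threshold, 164 lost it, 56 gained it and 0 reversed. Counts of the 42 genes called moved, among other changes, as follows. Depletion rose from 11 to 15 with upper quartile scaling (12 higher, 3 lower, 5985 of all genes). A stricter low-count filter also gave 15 (12 higher, 3 lower, 5177 of all genes), and DESeq2 gave 14 (10 higher, 4 lower, 6685). With the replicate block the purified comparison had 16 (7065 of all genes) and the unpurified 7 (4572). DESeq2 size factors in edgeR gave 18 (7415) and 8 (4998) for these comparisons. Without the low-count filter the unpurified comparison had 5 (2 higher). Against a log2 fold change of 0.5, depletion had 4 (2 higher; 2831 of all genes), the purified comparison 9 (2 higher, 7 lower; 3985), the unpurified 1 (0 higher, 1 lower; 1859) and the difference of the purification effects 0 (0 lower; 430). With only the groups compared in the fit, depletion had 5 (4 higher, 1 lower; 3556), the purified comparison 11 (4 higher, 7 lower; 5446) and the unpurified 19 (13 higher, 6 lower; 6225), which is 45.2% of the 42 genes against 42.4% of the genes tested in that fit. The fit of the unpurified groups alone added Dnajb4, Hsp90aa1, Hspb7, Hsp90b1, Dnajb11, Sdf2l1, Manf, Creld2 and Pdia3 to the unpurified calls. DESeq2 gave 5 for the difference (5 lower; 2440 of all genes). With the replicate block the difference had 808 calls over all genes instead of 1266; the block shares only a number between libraries. Leaving out 1 library at a time gave 5 to 14 calls for depletion (3 to 12 higher, 2 to 5 lower; 4379 to 5990 of all genes), 11 to 24 for the purified comparison (3 to 15 higher, 8 to 12 lower; 5678 to 7667), 2 to 6 for the unpurified (1 to 5 higher, 1 to 2 lower; 2949 to 4188), 0 for sorting (749 to 839) and 0 to 8 for the difference (0 to 1 higher, 0 to 7 lower; 437 to 1612). Fewer samples leave fewer residual degrees of freedom; otherwise the cause was not tested. Called under every alternative were Hspa4l, Dnaja1 and Ddit3 with depletion, Dnajb9 between unpurified groups, and Hspa1a, Dnaja1, Cryab, Hspd1, Hspe1, Dnajb9, Dnajc3 and Herpud1 between purified groups. Of those, Hspa1a was not tested as a separate gene when summed with Hspa1b.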
